A study of Arabidopsis thaliana with 7 samples.

Results

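DFR, BAN and TT15 are genes linked to seed proanthocyanidins in Arabidopsis thaliana, DFR and BAN as flavonoid enzymes and TT15 as a sterol glucosyltransferase. They were picked by name, each through the probe set that names that gene alone. These are 249215_at for DFR (AT5G42800), 264401_at for BAN (AT1G61720) and 262722_at for TT15 (AT1G43620, listed in the array's annotation as UGT80B1), which makes 3 of the 22746 non-control probe sets on the array. Transcripts were measured in developing seeds of wild-type plants of the Columbia (Col) accession (n = 4 arrays) and of plants carrying the myb5-1 allele (n = 3 arrays), 1 Affymetrix array per sample. Both genotypes were grown at the same time on soil in constant light, and the labels name no treatment. The seeds, at globular to walking-stick embryo stages, were dissected out of the siliques. The design text calls the samples of a genotype biological replicates, and a single mutant allele was used. MYB5 transcripts were not analysed here.

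Proanthocyanidins are condensed tannins that build up in the innermost layer of the seed coat, the endothelium, and turn brown on oxidation. DFR, dihydroflavonol reductase, makes leucoanthocyanidins and so feeds both the anthocyanins and the proanthocyanidins. BAN, anthocyanidin reductase, acts after the branch point and makes flavan-3-ols, the units of which proanthocyanidins are built. TT15 is a different kind of enzyme, a glucosyltransferase that attaches glucose to sterols, and its mutants have pale seeds. DFR and BAN are known targets of a complex of the MYB factor TT2, the bHLH factor TT8 and the WD-repeat protein TTG1, and MYB5 is a MYB factor that can act with TT8 and TTG1. Whole seeds hold coat, endosperm and embryo together, so fewer endothelial cells and less RNA per cell cannot be told apart in these values.

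The arrays had been scaled to a common trimmed mean before deposit, and their median intensities ran from 49.0 to 54.4. The arrays fell into 2 sets along a first principal component, called set A and set B below. Set A holds 2 wild-type arrays (replicates 1 and 2) and 1 myb5 array (replicate 1), and set B holds 2 arrays of each genotype (wild-type replicates 3 and 4, myb5 replicates 2 and 3). The component was computed over the 22743 probe sets that remain without the 3 genes, and it held 56.8% of the variance. The labels give no batch that would account for the sets. Among seed markers, the seed coat subtilase gene SBT1.7 had intensities of 5074 to 7667 over all arrays. PER36, a peroxidase gene of the seed coat, ran from 260.2 to 1026, with its lowest value in wild-type replicate 3, and the endosperm genes AGL62 and IKU2 lay at or below 17.8.

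DFR had intensities of 1559, 2143, 5381 and 3906 in wild-type replicates 1 to 4, and of 1383, 3940 and 4549 in myb5 replicates 1 to 3. Each genotype held low arrays and high arrays, and the genotypes overlapped over most of their range. Wild type averaged 3247 ± 1738 (SD, n = 4), and myb5 averaged 3290.5 ± 1679.7 (SD, n = 3). The spread within a genotype was large: the highest wild-type array was 3.45 times the lowest, and the highest myb5 array was 3.29 times the lowest. On the log2 scale used for testing, the residual SD of DFR was larger than that of 97.9% of all probe sets.

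BAN had intensities of 2684, 2996, 6754 and 4681 in wild-type replicates 1 to 4, and of 3424, 6533 and 5881 in myb5 replicates 1 to 3. The low arrays were again those of set A, and the genotypes overlapped. Wild type averaged 4279 ± 1869 (SD, n = 4) and myb5 5279 ± 1639 (SD, n = 3). The highest array of a genotype was 2.52 times the lowest in wild type and 1.91 times in myb5. The residual SD of BAN was larger than that of 93.0% of probe sets.

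TT15 had intensities of 217, 193, 257 and 216 in wild-type replicates 1 to 4, and of 223, 242 and 231 in myb5 replicates 1 to 3. All myb5 arrays lay inside the wild-type range. The averages were 221 ± 26.6 for wild type (SD, n = 4) and 232 ± 9.26 for myb5 (SD, n = 3). Over all 7 arrays the highest value was 1.33 times the lowest, against 3.89 for DFR and 2.52 for BAN. Its residual SD was 0.11, smaller than that of most probe sets.

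**Figure D1:**
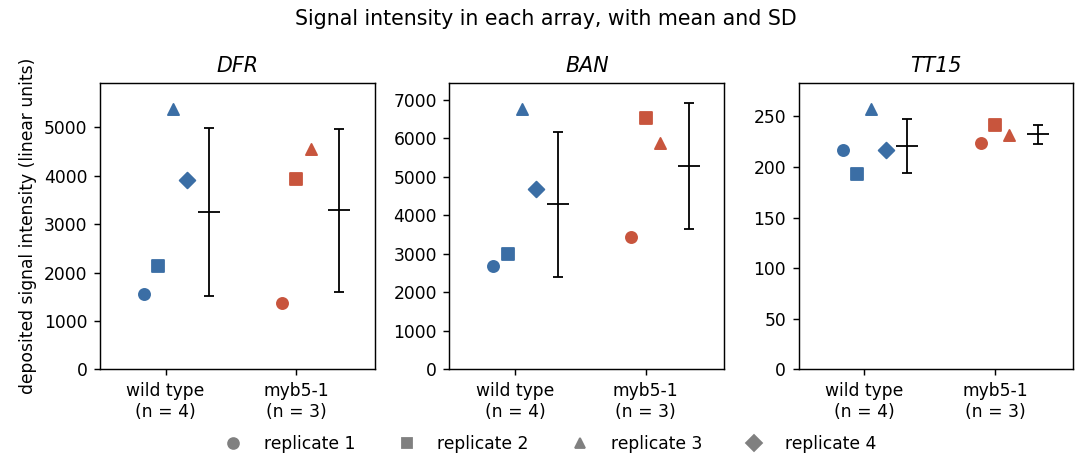
Deposited signal intensity (vertical axes, linear units from 0, scaled separately for each gene) of DFR, BAN and TT15 in wild-type and myb5-1 seeds; points are single arrays with the symbol giving the replicate number, and bars are the mean with the SD. DFR spans 1383 to 5381 and BAN 2684 to 6754 with low and high arrays in both genotypes, while TT15 stays between 193 and 257.

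The comparison of the genotypes asks whether transcripts of these genes differ between wild-type and myb5-1 seeds. None of the 3 genes passed the threshold of 0.05 on the adjusted p, which 0.0044% of all probe sets passed (1 probe set). None of the 3 had arrays of one genotype all above or all below those of the other, as 4.35% of all probe sets did. Differences below are myb5 minus wild type in quantile-normalized log2(intensity + 16), from a limma fit across all probe sets, and folds are taken from that scale. DFR differed by 0.07 ± 0.56 (SE; limma adjusted p = 1.00). Its 95% interval ran from -1.24 to 1.38, which spans 0.42-fold to 2.60-fold of the wild-type level. The sign of the DFR difference was not settled either, since it was -0.06 with arrays centred on their medians. Leaving out single arrays turned it as well: it was -0.22 without wild-type replicate 1, and -0.10 if replicate 2 was dropped instead. Dropping myb5 replicate 2 gave -0.14, and dropping myb5 replicate 3 gave -0.27. It was 0.24 when wild-type replicate 4 was dropped, 0.36 for wild-type replicate 3 and 0.62 for myb5 replicate 1.

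BAN differed by 0.38 ± 0.36 (SE; limma adjusted p = 1.00), and its 95% interval ran from -0.47 to 1.23, or 0.72-fold to 2.35-fold. The value stayed above 0 in all 19 alternatives tried, between 0.14 and 0.65, and passed in none of them. Not all of these could turn its sign. Leaving out dim probe sets, or limma's trend and robust settings for the variances, cannot move the difference itself. A term for replicate number gave 0.48, the same as dropping wild-type replicate 4. The BAN difference was 0.65 without myb5 replicate 1, 0.62 if wild-type replicate 3 was dropped, and 0.21 if wild-type replicate 2 was dropped. TT15 differed by 0.06 ± 0.11 (SE; limma adjusted p = 1.00). Its 95% interval was the narrowest of the 3 genes, from -0.20 to 0.33, or 0.87-fold to 1.26-fold. For TT15 a rise or fall much larger than that lies outside the interval, whereas for DFR and BAN a change of 2-fold upward lies within it. A 2-fold fall also lies within the DFR interval, but outside that of BAN.

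**Figure D2:**
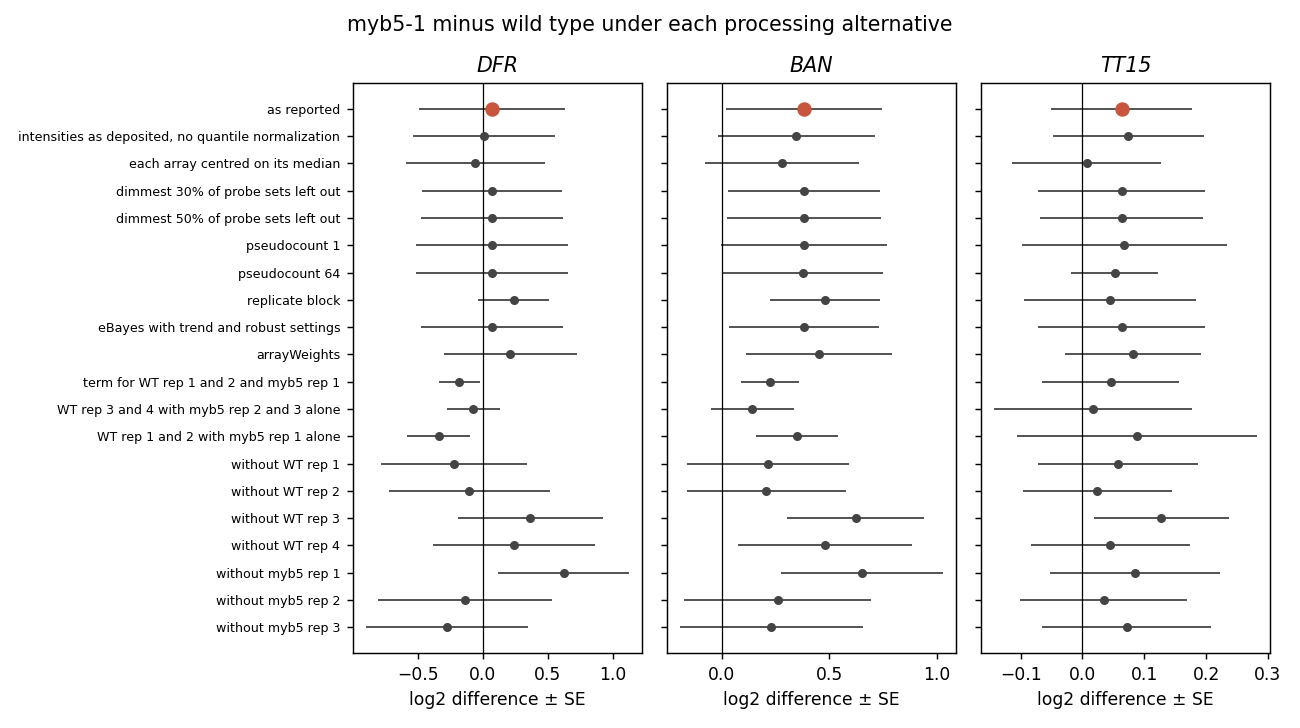
Difference between myb5-1 and wild type in log2 intensity with its standard error (horizontal axes, scaled separately for each gene) as reported (large point) and under each of 19 processing alternatives (rows). The DFR value falls on both sides of 0, from -0.34 to 0.62, while the BAN and TT15 values stay above 0, from 0.14 to 0.65 and from 0.0071 to 0.13.

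For DFR and BAN, the 2 sets of arrays lay further apart than the genotypes. DFR was 1383 to 2143 in set A and 3906 to 5381 in set B, a ratio of means of 2.62. BAN was 2684 to 3424 in set A and 4681 to 6754 in set B, a ratio of 1.96. The sets did not overlap for either gene, also with the intensities as deposited and with median centring. This is a description, since the sets were read from the same arrays, and 13.8% of all probe sets were likewise higher in every array of set B than in every array of set A. TT15 was 193 to 223 in set A and 216 to 257 in set B, so the sets overlapped.

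In size, the log2 difference between the sets was 1.46 for DFR, 0.98 for BAN and 0.12 for TT15. Of the 8622 probe sets with a mean intensity of at least 100, 87 (1.01%) were at least as much higher in set B as DFR, and 287 (3.33%) as BAN. For TT15 the count was 3755 (43.6%). Grouping by set took up 93.6% of the variance of DFR, 89.4% of that of BAN and 34.0% of that of TT15 between arrays, beside a median of 25.9% over all probe sets. Grouping by genotype took up 0.21%, 13.7% and 10.3%, beside a median of 8.68%. The plot of levels along the first principal component shows DFR and BAN in 2 separate clusters of arrays and TT15 near its mean throughout.

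**Figure D3:**
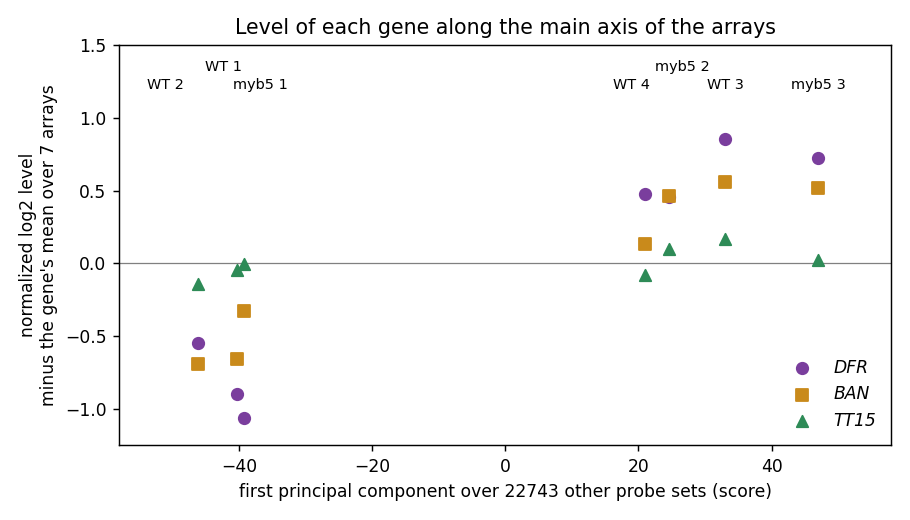
Normalized log2 level of DFR, BAN and TT15 minus each gene's mean over the 7 arrays (vertical axis), against the score of each array on the first principal component of the 22743 other probe sets (horizontal axis); each point is 1 array, named at the top (WT, wild type). DFR runs from -1.06 to 0.86 and BAN from -0.69 to 0.56, low in the 3 arrays of set A on the left and high in the 4 of set B on the right, and TT15 stays between -0.15 and 0.17.

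Some markers of other tissues moved with the same sets. Of all probe sets, 11.6% were lower in every array of set B than in every array of set A, and 13.8% were higher. The late embryo genes measured, PAP85 (a vicilin-like storage protein) and OLEO3 (an oleosin), 2 of 10 on the list, had a summed intensity of 5075 to 7343 in set A and 628 to 1485 in set B. RCA, the Rubisco activase gene and the only leaf photosynthesis marker measured of 6, was 473 to 573 and 145 to 249 in the same order. ALC, a fruit wall gene and the only one measured of 4, was 49.3 to 70.9 and 78.1 to 120. PAP85, OLEO3 and RCA thus ran opposite to DFR and BAN and ALC ran with them, and the part of these markers in the DFR and BAN values was not tested. The seed coat markers other than BAN, SBT1.7 and PER36, 2 of 7 on the list, had a summed intensity of 5935 to 6420 in set A and 6412 to 8692 in set B, a sum carried by SBT1.7. In normalized log2, set B minus set A, SBT1.7 differed by 0.29 and PER36 by -0.48, and the sets overlapped for both genes; for SBT1.7 they did not overlap in the intensities as deposited or with median centring. The sets also overlapped for the endosperm genes AGL62 (-0.04) and IKU2 (0.20) and for CLV3 (-0.22), the embryo meristem marker. AGL62, IKU2 and CLV3 had intensities of at most 9.74, 17.8 and 7.54, near or below the added constant of 16. At such levels the overlap does not show whether endosperm or meristem content differed between the sets. By genotype, the late embryo genes summed to 836 to 7343 for wild type and 628 to 5416 for myb5, and the seed coat genes to 5935 to 8692 and 5974 to 7271. None of the markers measured was listed at 0.

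The genotypes were also compared within each set. In set B, DFR averaged 4644 for wild type and 4244 for myb5, which is -0.07 in log2 (limma adjusted p = 1.00 in a fit to these 4 arrays). BAN averaged 5718 and 6207, a difference of 0.14 (limma adjusted p = 0.99), and TT15 averaged 237 in both, a difference of 0.02 (limma adjusted p = 1.00). Set A has a single myb5 array, and there DFR was 1383 in myb5 against a wild-type mean of 1851, BAN was 3424 against 2840, and TT15 was 223 against 205, with no spread of its own for myb5. In log2 these differences were -0.34, 0.35 and 0.09. For DFR the set A difference was opposite in sign to the 0.07 over all arrays and larger in size. For BAN it was about as large as the 0.38 over all arrays.

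With a term for the sets in the fit, standard errors fell to 0.16 for DFR and 0.13 for BAN and stayed at 0.11 for TT15. DFR then differed by -0.18, with a 95% interval of 0.68-fold to 1.14-fold (limma adjusted p = 0.94). BAN differed by 0.23, with an interval of 0.94-fold to 1.45-fold (limma adjusted p = 0.92). TT15 differed by 0.05, with an interval of 0.86-fold to 1.24-fold (limma adjusted p = 0.99). These intervals hold only for sets taken as given, since the sets were defined from these arrays. In that fit DFR and BAN pointed in different directions, and whether their genotype differences differ was not tested.

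DFR and BAN did not move by equal amounts. Relative to each gene's own mean over the 7 arrays, BAN stood above DFR by 0.74 on the log2 scale in myb5 replicate 1 and by 0.24 in wild-type replicate 1. BAN stood below DFR by between 0.14 and 0.34 in wild-type replicates 2, 3 and 4 and by 0.21 in myb5 replicate 3. In myb5 replicate 2 the genes were level, with a difference of 0.0058. The array with the lowest DFR, myb5 replicate 1, was therefore not the array with the lowest BAN, which was wild-type replicate 1 by intensity and wild-type replicate 2 after normalization.

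Likeness of pattern was measured as the root-mean-square difference between profiles over the 7 arrays, each centred on the gene's own mean in normalized log2. The candidates were 4429 probe sets that name 1 gene and have a mean intensity of at least 100. The distance between DFR and BAN was 0.35, at which BAN ranked 95 in nearness to DFR, and DFR ranked 691 in nearness to BAN. The candidates nearest to DFR were AT5G66590 at 0.12, LPR1 at 0.14, AT2G38900 at 0.15 and AT1G32740 at 0.16, followed by AT4G22400 at 0.17. LPR1 encodes a multicopper oxidase known from phosphate-starved roots, and its intensity was 305 to 432 in set A and 745 to 952 in set B. AT2G38900 was 1719 to 2662 and 5020 to 6217 in the same order.

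The candidates nearest to BAN were AT3G15350 at 0.06, AT4G36520 at 0.10 and AT1G16705 at 0.10, followed by AT1G65295 and AT3G23600 at 0.10. AT3G15350 was 150, 126, 343 and 279 in wild-type replicates 1 to 4 and 186, 312 and 332 in myb5 replicates 1 to 3, so its low arrays were those of BAN. AT3G23600 was 649 to 825 in set A and 1207 to 1681 in set B. Distances measure only the shape over 7 arrays in 2 clusters, and 80 candidates lay within 0.2 of BAN and 13 within 0.2 of DFR. TT15 had 1554 candidates within 0.2, as most steady genes have nearly flat profiles, and 173 candidates were flatter than TT15.

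The wider flavonoid pathway was described from 52 listed genes, of which 11 could be measured through a probe set of their own, the 3 genes above included. None of the 11 passed the adjusted threshold in either direction, which 0.0044% of all probe sets passed (1 probe set). None had an unadjusted limma p under 0.05, which 3.46% of all probe sets had. In none did all arrays of 1 genotype lie above or below those of the other, as in 4.35% of all probe sets. At these shares, counts of 0 among 11 genes say little about the pathway. Differences were above 0 for 7 genes and below 0 for 4, though DFR, UGT75C1 and UGT78D1 moved below 0 with median centring. Their median was 0.03, beside a median of -0.00035 over all probe sets. The enzymes before chalcone, 7 listed genes, the proanthocyanidin regulators, 9 listed genes, and the other flavonoid regulators, 10 listed genes, had 0 members measured here, so nothing is said of TT2, TT8 or TTG1.

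Upstream of DFR, the measured gene was CHIL, which encodes a chalcone isomerase-like protein that aids chalcone synthase. CHIL had intensities of 802, 834, 2135 and 1870 in wild-type replicates 1 to 4 and of 867, 2168 and 2133 in myb5 replicates 1 to 3. Its low arrays were those of DFR and BAN, and the sets did not overlap. Between genotypes it differed by 0.34 ± 0.49 (SE; limma adjusted p = 1.00). Its log2 difference between the sets was 1.35, beside 1.46 for DFR and 0.98 for BAN.

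Of the 7 measured genes that decorate flavonoids, 3 were higher in set A, 1 was higher in set B, and the other 3 were dim. UGT78D2, a flavonoid 3-O-glucosyltransferase gene, was 141 to 160 in set A and 55.6 to 90.1 in set B. UGT89C1, a flavonol 7-O-rhamnosyltransferase gene, was 73.9 to 120 and 1.73 to 21.8, and UGT79B1, an anthocyanin xylosyltransferase gene, was 67.1 to 139 and 33.8 to 39.2. These 3 genes were higher in every array of set A than in every array of set B, as 11.6% of all probe sets were. UGT89C1 fell below the added constant of 16 in wild-type replicate 3 (2.18) and in myb5 replicates 2 (7.03) and 3 (1.73). Its differences therefore rest in part on dim values. UGT78D1, a flavonol 3-O-rhamnosyltransferase gene, was 1384 to 1534 and 1588 to 2128, on the side of DFR and BAN with a log2 difference of 0.36 between the sets. It was higher in every array of set B than in every array of set A, as 13.8% of all probe sets were. UGT75C1, UGT78D3 and 5MAT had intensities of at most 3.80, 16.5 and 7.47, near or below the added constant of 16. Between genotypes the 7 decoration genes differed by -0.48 to 0.07, and UGT89C1 lay at -0.48 ± 0.88 (SE; limma adjusted p = 1.00).

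**Figure D4:**
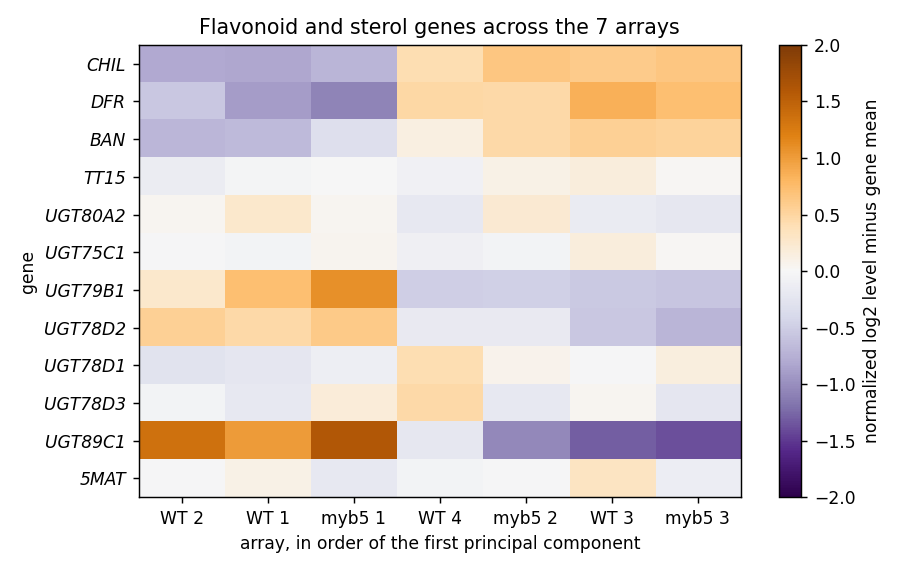
Normalized log2 level minus the gene's mean over the 7 arrays (colour, orange higher and purple lower). Rows are the 11 measured genes of the flavonoid list, which includes TT15, and UGT80A2. Columns are arrays in the order of their score on the first principal component (WT, wild type). CHIL, DFR and BAN are low in the 3 arrays on the left and high in the 4 on the right, UGT79B1, UGT78D2 and UGT89C1 show the opposite, and TT15 and UGT80A2 change little.

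TT15 was set beside the sterol pathway, where 1 of 15 listed genes was measured. This was UGT80A2, which encodes the other sterol glucosyltransferase of Arabidopsis. UGT80A2 had intensities of 388, 321, 285 and 283 in wild-type replicates 1 to 4 and of 330, 373 and 274 in myb5 replicates 1 to 3. The genotypes overlapped, with a difference of 0.03 ± 0.16 (SE; limma adjusted p = 1.00) that became -0.04 with median centring. Between the sets of arrays UGT80A2 differed by -0.20 and TT15 by 0.12, and the sets overlapped for both genes.

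**Figure D5:**
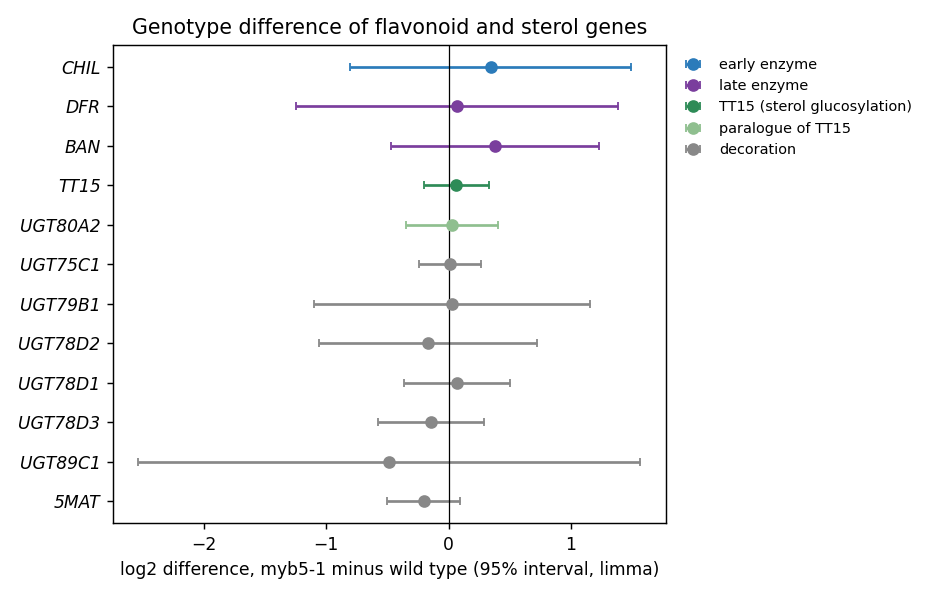
Difference between myb5-1 (n = 3 arrays) and wild type (n = 4 arrays) in normalized log2 intensity with its 95% interval from limma (horizontal axis). Rows, coloured by role, are the 11 measured genes of the flavonoid list, which includes TT15, and UGT80A2. Every interval includes 0, and that of TT15, from -0.20 to 0.33, is much narrower than that of DFR, from -1.24 to 1.38.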

How the data were processed

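The authors deposited a linear intensity for each probe set on each array, and per the labels' protocols total RNA was amplified in repeated oligo(dT)-primed cycles and labelled with biotin. The software that made the intensities is not named here, as the labels used do not state it. Each array had the same mean, 150.01, after 2% of probe sets were dropped at each end. The 64 control probe sets were left out. Values were turned into log2(intensity + 16) and, since array medians differed by 0.12, above the limit of 0.1, quantile normalized. Genotypes were compared with limma 3.58.1 in R 4.3.3 (lmFit, eBayes, genotype as the only term), with Benjamini-Hochberg adjustment over 22746 probe sets and a threshold of 0.05. No detection call was used, and the number of arrays limits the precision.

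Genes were named from the array's annotation and a RefSeq gene table (13513 probe sets name 1 gene, 503 several, and 8730 are unnamed here). Genes named are the 3 members, every measured flavonoid gene, up to 4 passing members or otherwise the 2 with the smallest p of each other list, and the 5 profiles nearest to DFR and to BAN. The members, the lists and the sets of arrays were chosen with earlier results of these data known. A list of reductases related to DFR and BAN by sequence was planned and not made, as no protein sequences were used here. The fit was also run on simulated data, with the outcome not given here.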

Additional observations from a re-analysis of the deposited data

Results flagged for a closer look

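Of 31 wild-type groups tested, 2 held an array far from the other 3, where chance gives about 1 in 20. Wild-type replicate 3 lay at 4.68 in normalized log2 for the endosperm gene IKU2, against 4.26 to 4.33. The same array lay at 4.11 for the stem cell gene CLV3, against 4.50 to 4.55. Both genes were dim, and neither DFR, BAN nor TT15 had such an array.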

How the results depend on the processing

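DFR, BAN and TT15 passed in none of 19 alternatives, and BAN and TT15 kept their direction in all of them. Leaving out dim probe sets, or limma's trend and robust settings, cannot move a difference, so these alternatives did not test direction. The replicate block gave the same differences as leaving out wild-type replicate 4. DFR turned to -0.057 with median centring, -0.18 with the set of arrays as a term, -0.34 in set A alone and -0.074 in set B alone. The cause was not tested. Leaving out each array gave -0.27 to 0.62 for DFR, 0.21 to 0.65 for BAN and 0.02 to 0.13 for TT15. The count of probe sets past the threshold, 1 as reported (256985_at, lower in myb5), was 2 without the dimmest 50% of probe sets, where 259737_at was added. It was 0 in set A alone and in set B alone, with fewer samples, and 1 to 2 when each array was left out, with AT2G14160 added without myb5 replicate 1. These probe sets were chosen after their values were seen. With the replicate block the count was 0 and the differences were 0.24 for DFR, 0.48 for BAN and 0.04 for TT15. Deviations of same-numbered arrays correlated at 0.63, -0.30 and 0.55, so the numbers were not taken to pair the samples. The counts of 0 for the flavonoid list and for the 1 measured sterol gene held in all alternatives. At most 2 probe sets of the whole array passed in any alternative, so that tells little about these genes. The reductase list gave no value under any setting.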
